A study of Homo sapiens with 45 samples.

Results

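The RNA of A375 cells was profiled after siRNA knockdown of CEBPD and of CEBPZ, 2 genes whose names place them together as CCAAT/enhancer binding proteins. The knockdowns are 2 of the 45 arrays of the series, and they were chosen by the siRNA named in the sample labels. A375 is an established human melanoma cell line, grown here in DMEM with foetal serum. Of the 45 Affymetrix U133 plus 2.0 arrays, 39 came from cells given an siRNA against a cell cycle, signalling or transcription gene, 3 from cells given control siRNA and 3 from untreated cells. Every targeting siRNA was a commercial pool of duplexes delivered with Oligofectamine, the cells were harvested after 48 hours, and each siRNA was applied to a single culture and read on 1 array. Neither knockdown therefore has a replicate. The siRNAs were transfected in 3 batches, and both knockdowns belong to the batch of 23 arrays called KD2. Each array was compared with the median of the same 21 other KD2 arrays, which carried siRNAs against 21 different genes. The spread of those 21 arrays thus holds the effects of their own siRNAs as well as culture and array noise, and the 2 comparisons share their reference. For cells given control siRNA or left untreated, no batch is given in the sources used here.

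CEBPD encodes C/EBP delta, a basic leucine zipper factor that forms dimers with the other members of its family, CEBPA, CEBPB, CEBPE, CEBPG and DDIT3, and binds the C/EBP element in enhancers and promoters. It is known for its induction by inflammatory stimuli, for its place in the acute phase response and in fat cell formation, and for its link to growth arrest in epithelial cells. CEBPZ has no leucine zipper and is no member of that family by sequence. It was described as a factor that binds the CCAAT box of the HSP70 promoter, and its yeast counterpart is an assembly factor of the large ribosomal subunit that acts in the nucleolus. The CCAAT box itself is bound in most promoters by the trimeric factor NF-Y.

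The promoters of 3 genes on which the description below turns are shown first, from RefSeq on GRCh38.p14, each running from 250 bases before to 50 bases after the annotated start and read along the strand of the gene. IFRD1 had the largest rise in the CEBPD siRNA array, GALNT1 the largest fall after the target in the CEBPZ siRNA array, and SPP1 differed in opposite directions in the 2 arrays. Capitals mark a match, on either strand, to the CCAAT box (CCAAT, or ATTGG on the other strand) or to the pattern TTGCNNAA, a short form of the C/EBP element.
SPP1, chr4:87975464-87975763, plus strand: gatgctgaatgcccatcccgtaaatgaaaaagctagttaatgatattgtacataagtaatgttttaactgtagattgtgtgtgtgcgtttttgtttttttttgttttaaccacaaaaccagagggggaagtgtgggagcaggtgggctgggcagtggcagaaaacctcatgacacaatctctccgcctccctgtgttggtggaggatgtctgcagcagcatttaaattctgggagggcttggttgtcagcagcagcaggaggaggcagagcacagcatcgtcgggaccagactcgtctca
IFRD1, chr7:112450258-112450557, plus strand: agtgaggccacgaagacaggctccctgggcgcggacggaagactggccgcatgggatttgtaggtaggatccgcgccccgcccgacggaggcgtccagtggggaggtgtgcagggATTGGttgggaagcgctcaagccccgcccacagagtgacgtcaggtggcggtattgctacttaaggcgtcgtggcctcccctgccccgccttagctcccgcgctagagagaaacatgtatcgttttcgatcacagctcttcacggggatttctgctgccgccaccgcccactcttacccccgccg
GALNT1, chr18:35580672-35580971, plus strand: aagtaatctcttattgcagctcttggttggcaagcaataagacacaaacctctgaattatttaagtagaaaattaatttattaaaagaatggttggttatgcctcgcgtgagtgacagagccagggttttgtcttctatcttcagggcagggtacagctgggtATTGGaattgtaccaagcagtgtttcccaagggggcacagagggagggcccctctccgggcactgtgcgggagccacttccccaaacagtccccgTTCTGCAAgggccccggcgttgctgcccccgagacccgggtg
The SPP1 window held neither pattern. The IFRD1 window held 1 CCAAT box, which begins 135 bases before the start. The GALNT1 window held 1 CCAAT box, which begins 87 bases before the start, and 1 match to TTGCNNAA, which begins 9 bases after it. A match describes the letters of the window and does not show that a factor binds there.

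The values were log2 intensities, and a gene was represented by its brightest probe set. Of 19775 genes named on the array, 4800 had a median above the noise limit of 8.59, set at 1.5 times the typical intensity of the bacterial control BioB (3' probe set) over the 45 arrays. The median and the quartile range of both arrays lay within those of the 21 others. All 9 spiked-in hybridisation control probe sets were brighter in the CEBPZ siRNA array than in any of the 21 others, for example 8.31 against a highest value of 8.09 for the 3' BioB probe set. The 3 probe sets for 18S ribosomal RNA were also brighter in the CEBPZ siRNA array than in the 21, at 6.86, 6.18 and 5.83 against highest values of 6.70, 5.83 and 5.55, and below the highest control siRNA array. The part of these differences in the results below was not tested. No leukocyte, fibroblast or endothelial marker passed the noise limit, of 11, 7 and 7 measured, and of 7 epithelial markers KRT18 passed it. The melanocyte factors MITF and SOX10 passed it, whereas the pigment genes TYR, TYRP1, PMEL and MLANA did not.

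CEBPD RNA was dim, with a median over the 45 arrays below the noise limit, and was at its lowest after its own siRNA. It measured 6.65 there, against a lowest value of 7.14, a median of 7.64 and a highest value of 10.44 in the 21 others. The highest value came from the PIK3CB siRNA array, and all the rest were near or below 8.0. The CEBPD siRNA array was thus below all 21 and also the lowest of the 45 arrays. Its log2 difference from the median was -0.99, a level 1.98-fold lower, with an SD among the 21 of 0.66, or 0.25 without the PIK3CB siRNA array. The second CEBPD probe set was near the floor of the array at 3.11 and differed by -0.16. Control siRNA arrays held CEBPD at 7.53 to 7.95 and untreated arrays at 7.67 to 8.80.

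CEBPZ RNA was above the noise limit, and its measured fall was larger. It stood at 9.21 after its own siRNA, against a lowest value of 10.45, a median of 10.77 and a highest value of 10.94 in the 21 others. The array was below all 21 and the lowest of the 45. The log2 difference was -1.57 with an SD of 0.13 among the 21, a level 2.96-fold lower and a reduction of 66.2%. The neighbouring genes CEBPZOS and NDUFAF7 differed by 0.13 and 0.08 in the same array. The study kept siRNAs that lowered their target on these arrays, so the falls are a check of the labels and no finding.

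The target of the other siRNA lay near the median in both arrays. CEBPZ differed by -0.06 in the CEBPD siRNA array and CEBPD by 0.05 in the CEBPZ siRNA array. CEBPB, the only member of the leucine zipper family above the noise limit, was 10.59 in the CEBPD siRNA array against 10.63 to 11.47 in the 21 others, below all of them but by only 0.19 from their median. It differed by -0.09 in the CEBPZ siRNA array. DDIT3, which encodes the stress-induced family member CHOP, was 8.64 in the CEBPD siRNA array, above the 7.95 to 8.56 of the 21 others, a difference of 0.52 in a gene below the noise limit on its median. It differed by 0.03 in the CEBPZ siRNA array. CEBPG differed by 0.09 and -0.10, CEBPA by 0.06 and 0.06, and the dim CEBPE by -0.04 and 0.27, in the CEBPD and CEBPZ siRNA arrays. The NF-Y genes NFYA, NFYB and NFYC differed by 0.10, 0.02 and 0.17 in the CEBPD siRNA array and by -0.17, -0.06 and -0.03 in the CEBPZ siRNA array.

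**Figure D1:**
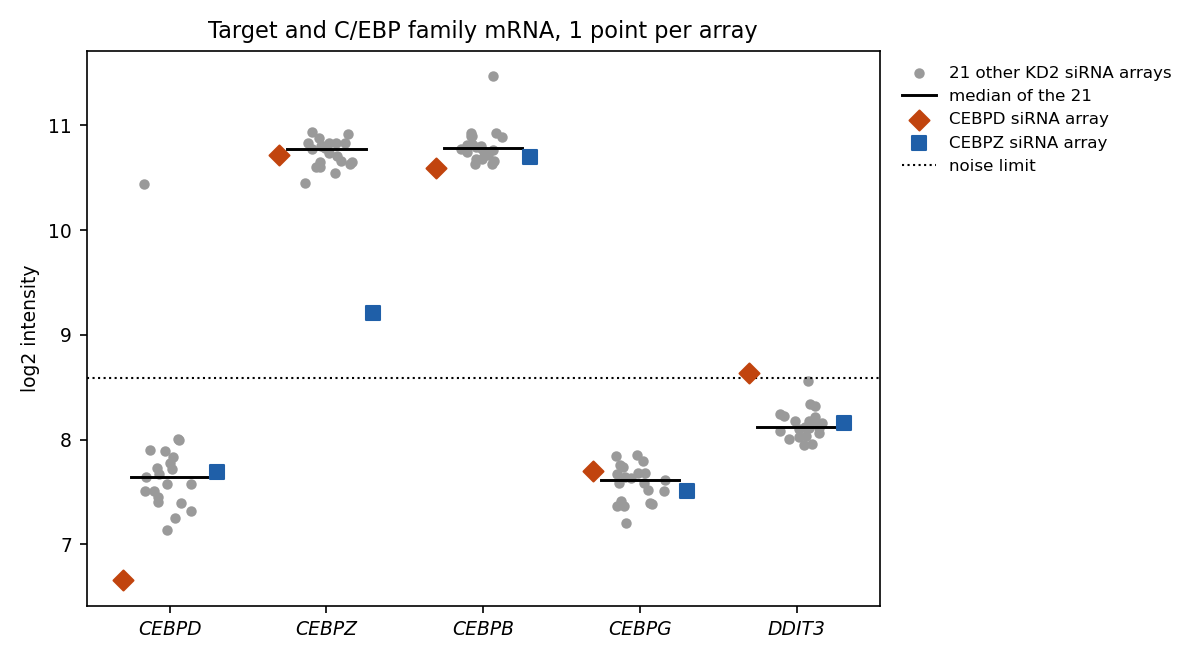
Log2 intensity of CEBPD, CEBPZ, CEBPB, CEBPG and DDIT3 in the 23 KD2 arrays. Grey points are the 21 other siRNA arrays, the black line is their median, and the dotted line is the noise limit of 8.59. CEBPD is lowest in the CEBPD siRNA array at 6.65 and CEBPZ is lowest in the CEBPZ siRNA array at 9.21, and the 1 high CEBPD value is the PIK3CB siRNA array at 10.44.

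Few genes departed from the rest of the batch. A gene was called where it lay at least 1.5-fold (0.585 on the log2 scale) from the median of the 21 and outside their whole range. After CEBPD siRNA 8 genes were called higher, 0.167% of the 4800, and 20 were called lower, 0.417%. After CEBPZ siRNA 1 gene was called higher, 0.0208%, and 13 were called lower, 0.271%, CEBPZ among them. The 28 genes of the CEBPD siRNA array were the 4th largest number among the 23 KD2 arrays and the 14 of the CEBPZ siRNA array the 9th. When each of the 21 others was compared with the remaining 20 in the same way, between 1 and 83 genes were called, with a median of 10. Of the called genes, 19 of 28 and 13 of 14 lay past 1.5-fold in the same direction in none of those 21 comparisons. A called gene lies outside the range of the same 21 arrays by definition, so these counts follow in part from the rule and are a description only. The fold threshold fell between NOTCH2 at 0.61 and CTSL at 0.58, and between ELK4 at -0.61 and OIP5-AS1 at -0.58, in the CEBPD siRNA array, and between ZBTB18 at -0.59 and SLC25A15 at -0.58 in the CEBPZ siRNA array. CXCL8 at 0.65 and CDKN1C at -0.59 were past the fold in the CEBPD siRNA array but inside the range of the 21.

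**Figure D2:**
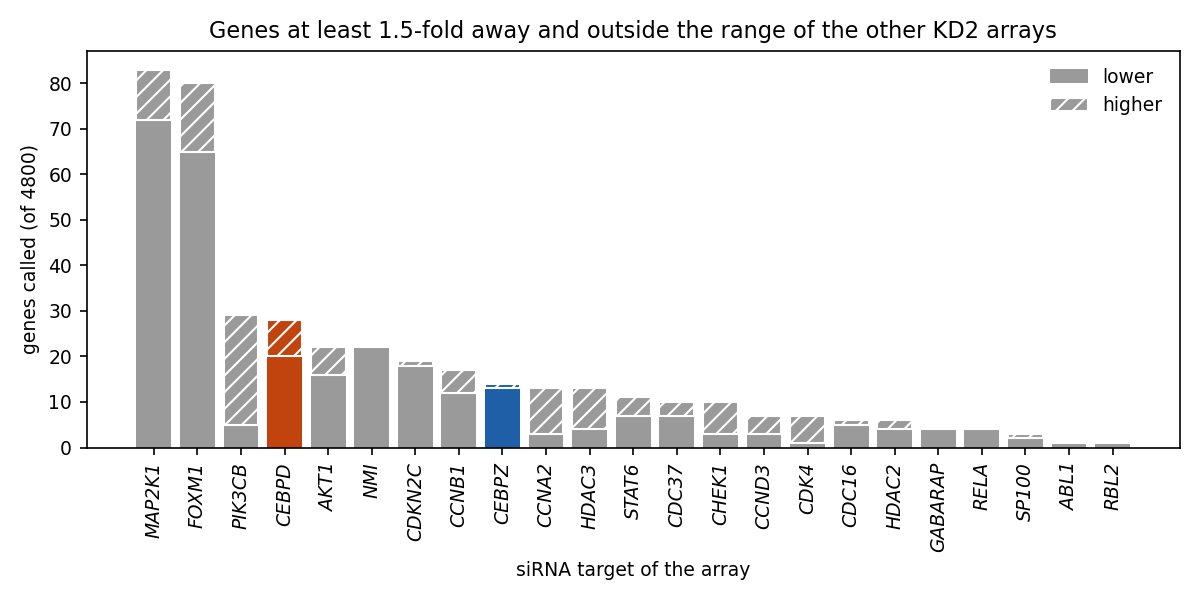
Number of the 4800 genes called in each of the 23 KD2 arrays, lower (plain) and higher (hatched), with the siRNA target of each array on the horizontal axis. The CEBPD siRNA array (red) has 28 and the CEBPZ siRNA array (blue) 14, between the 1 and 83 of the other arrays.

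IFRD1, a co-regulator of transcription induced by stress and growth signals, had the largest difference in the CEBPD siRNA array. It measured 10.31 against a lowest value of 8.50, a median of 8.99 and a highest value of 9.37 in the 21 others, a 2.50-fold higher level. The array stood clear of all 21, and a second probe set of the gene was 1.47 higher. In the CEBPZ siRNA array IFRD1 was 9.12, within the range of the others, while its second probe set was 0.45 higher, at 9.02 just above the 9.01 of the highest of the 21. TMEM64, a membrane protein gene, was 10.15 against 8.33, 9.27 and 10.02, which was only just above the highest of the 21. TLR4, the receptor for bacterial lipopolysaccharide, was 9.37 against 7.86, 8.71 and 9.16, and its other 3 probe sets were higher by 0.67 to 0.82. HMGA2, a chromatin protein linked to growth and invasion, was higher by 0.69, at 11.73 against a highest value of 11.66. The remaining called genes were HS3ST3A1, a heparan sulphate sulphotransferase, FERMT1, which activates integrins, PRNP, the prion protein, and the receptor NOTCH2, higher by 0.68, 0.64, 0.62 and 0.61. PRNP and NOTCH2 had further probe sets above noise, which were higher by 0.73 for PRNP and by 0.53 and 0.54 for NOTCH2.

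SPP1, which encodes the secreted matrix protein osteopontin, had the largest fall in the CEBPD siRNA array. It measured 8.01 against 8.51, 9.30 and 10.04 for the lowest, median and highest of the 21 others, a 2.44-fold lower level. Some of the other genes called lower also encode secreted proteins. MGP, an inhibitor of calcification, was 8.20 against 8.51, 9.12 and 10.53. THBS1, which encodes thrombospondin, was 8.11 against 8.27, 8.96 and 9.27. The Wnt inhibitor DKK1, the proteoglycan gene SPOCK1 and SERPINF1, which encodes the angiogenesis inhibitor PEDF, were lower by 0.66, 0.65 and 0.62.

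MBTPS2 encodes the site-2 protease that releases SREBP and ATF6 from membranes. It was 9.78 in the CEBPD siRNA array against 10.45, 10.64 and 10.80 in the 21 others, a 1.82-fold lower level in a gene whose SD among the 21 was 0.10. Its other probe set of moderate signal, below the noise limit, differed by -0.28. The glycolytic enzyme gene GPI was 10.83 against 11.39, 11.63 and 11.89. UBE2B, a ubiquitin conjugating enzyme of DNA repair, was 9.92 against 10.33, 10.56 and 10.81, and its 3 other probe sets above noise differed by -0.63 to -0.71. ANXA11, an annexin, was 10.45 against 11.01, 11.14 and 11.35.

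The other genes called lower in the CEBPD siRNA array had differences between -0.75 and -0.61. SEPTIN8, a cytoskeletal septin, and the RNA-binding protein gene MSI2 each differed by -0.75, DDAH1, which breaks down methylated arginine, by -0.72, and PDIA4, a disulphide isomerase of the endoplasmic reticulum, by -0.70. CDH19, a cadherin of neural crest cells, differed by -0.70, ARL2, a GTPase of tubulin folding, by -0.69, the cystine transporter gene SLC7A11 by -0.69, and CUX1, a homeobox factor also known as CCAAT displacement protein, by -0.69. The mRNA decapping gene DCP1A and ELK4, a partner of serum response factor, differed by -0.67 and -0.61. Of the 28 called genes, 8 had a second probe set above noise, and in all 8 these lay on the same side, past 1.5-fold in 4. Probe sets below the limit did not always follow, and for HMGA2 and SEPTIN8 the probe set with the largest SD differed by -0.18 and 0.10.

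**Figure D3:**
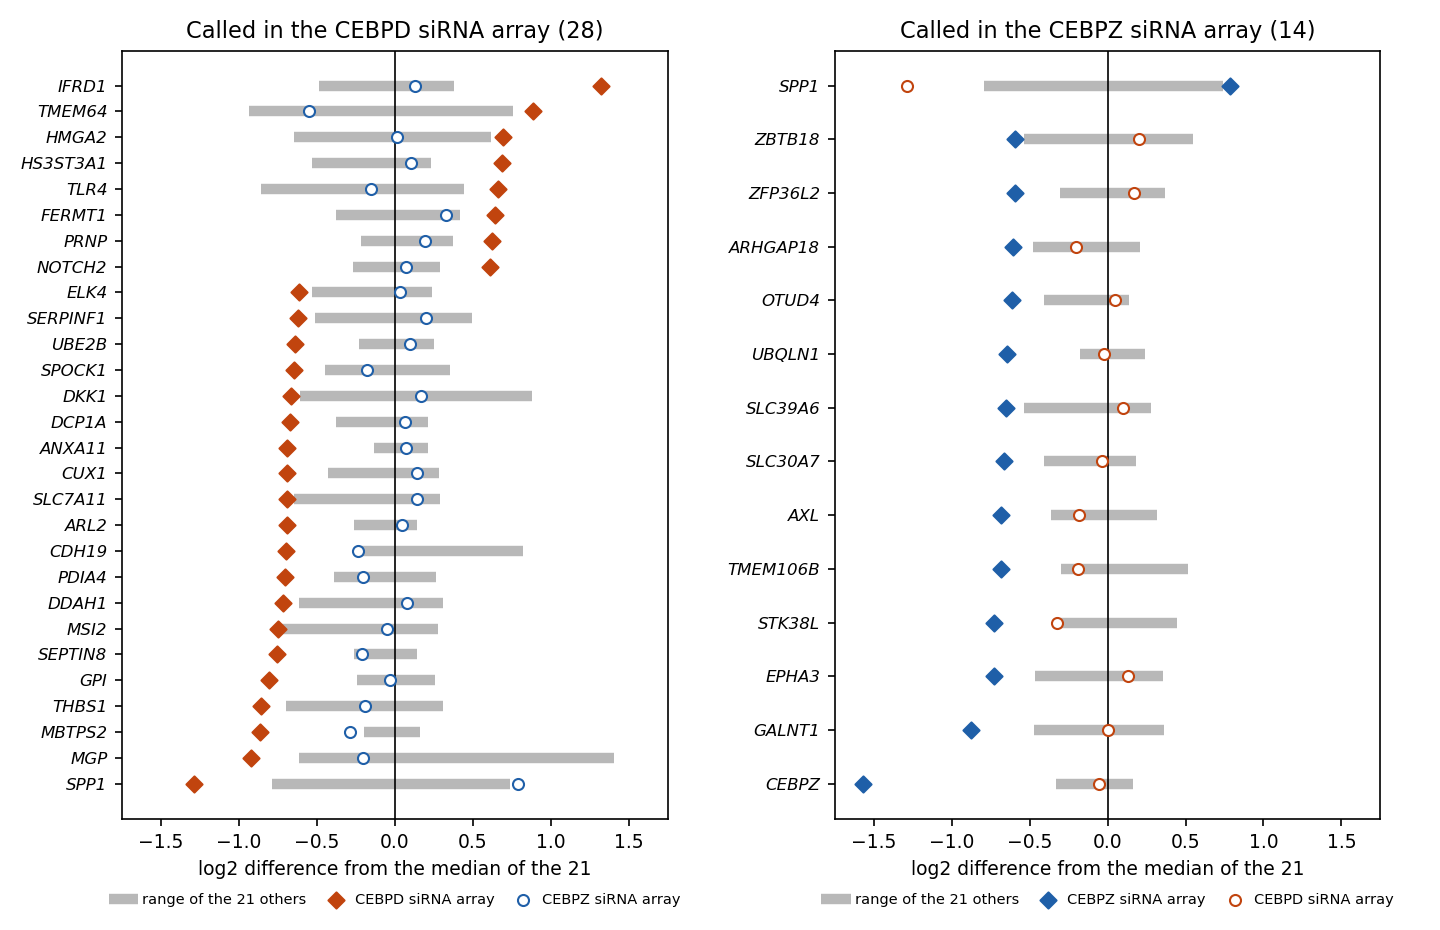
Log2 differences from the median of the 21 other KD2 arrays for the 28 genes called in the CEBPD siRNA array (left) and the 14 called in the CEBPZ siRNA array (right). Filled diamonds are the array in which the gene was called, open circles the other knockdown, and grey bars the range of the 21 others. Most open circles lie inside the grey bars, and SPP1 lies at -1.29 in the CEBPD and 0.79 in the CEBPZ siRNA array.

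GALNT1, which starts mucin-type O-glycosylation in the Golgi, had the largest fall in the CEBPZ siRNA array after CEBPZ itself. It measured 8.15 against 8.56, 9.03 and 9.39 for the lowest, median and highest of the 21 others, a 1.83-fold lower level, and 9.03 in the CEBPD siRNA array. A second probe set above noise differed by -0.44. Some of the other genes called lower encode receptors or membrane transporters. The ephrin receptor gene EPHA3 was 9.23 against 9.50, 9.96 and 10.32. The receptor tyrosine kinase gene AXL was 9.98 against 10.30, 10.67 and 10.98. SLC39A6, a zinc importer of the plasma membrane, was 10.80 against 10.92, 11.45 and 11.73, and its 3 other probe sets were lower by 0.63 to 0.73. SLC30A7, which moves zinc into the Golgi, was 9.02 against 9.27, 9.68 and 9.86, with a second probe set above noise at -0.79. TMEM106B, a lysosomal membrane protein gene, was lower by 0.68, and its second probe set above noise by 0.62.

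The rest of the genes called lower in the CEBPZ siRNA array were regulators with differences between -0.73 and -0.59. STK38L, an NDR family kinase, differed by -0.73, the ubiquitin receptor gene UBQLN1 by -0.65, the deubiquitinase gene OTUD4 by -0.61 and ARHGAP18 by -0.60. ZFP36L2, which promotes the decay of AU-rich mRNA, and the transcriptional repressor gene ZBTB18 both differed by -0.59. For UBQLN1 the other 2 probe sets above noise differed by only -0.15 and -0.08. The OTUD4 probe sets below the limit did not follow the fall, and the median over the OTUD4 probe sets was 0.09.

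SPP1 was the only gene called higher in the CEBPZ siRNA array, at 10.09, 1.73-fold above the median of the 21. Its margin over the highest of the 21, 10.04 in the HDAC2 siRNA array, was small beside the SD of 0.40. SPP1 was thus below all 21 in the CEBPD siRNA array and above all 21 in the CEBPZ siRNA array, and the 2 arrays differed by 2.08. In the control siRNA arrays SPP1 was 8.57, 9.21 and 8.83, and in the untreated arrays 8.52, 8.67 and 8.81, between the 2 knockdowns in all 6.

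No gene above noise was called in the same direction in both arrays, so the shared genes were 0 of 28 and 0 of 14. With so few of the 4800 genes called in each array nothing can be read from the absence of an overlap. SPP1 was called in opposite directions. Of the called genes, 25 of 28 and 12 of 14 were particular to their array by the definition used, with a difference in the other knockdown under 1.2-fold or of the other sign. Of all 4800 genes 96.7% and 95.2% met the same condition on the other knockdown, so these counts say nothing specific to the called genes. The remaining genes were FERMT1 and MBTPS2, which differed by 0.33 and -0.29 in the CEBPZ siRNA array, and STK38L, which differed by -0.32 in the CEBPD siRNA array. MBTPS2 at 10.36 in the CEBPZ siRNA array was also below all 21 others. Between the 2 knockdown arrays directly, 34 genes were at least 1.5-fold higher in the CEBPD siRNA array and 38 lower, 72 in all, where the 210 pairs of the other arrays gave 8 to 274 with a median of 48.5. With the 3 control siRNA arrays as reference 32 genes were shared, all relative to the same 3 arrays of unknown batch.

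With no noise limit, 2 genes among 19775 were shared, both below the limit. KIAA0040 was 8.94 in the CEBPD and 8.46 in the CEBPZ siRNA array, against 6.91, 7.78 and 8.25 for the lowest, median and highest of the 21 others. Its other probe set differed by 1.39 and 0.26, the second within the range of the 21. OLFML2A, an olfactomedin-like matrix gene, was 6.49 and 6.41 against 6.50, 7.23 and 7.71, below all 21 in both arrays. A second gene, the cancer-testis gene SPANXB1, was called in opposite directions, at 7.66 and 9.52 against 7.90, 8.46 and 9.08. Without the limit 25 genes were called higher and 56 lower in the CEBPD siRNA array, and 20 higher and 41 lower in the CEBPZ siRNA array.

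**Figure D4:**
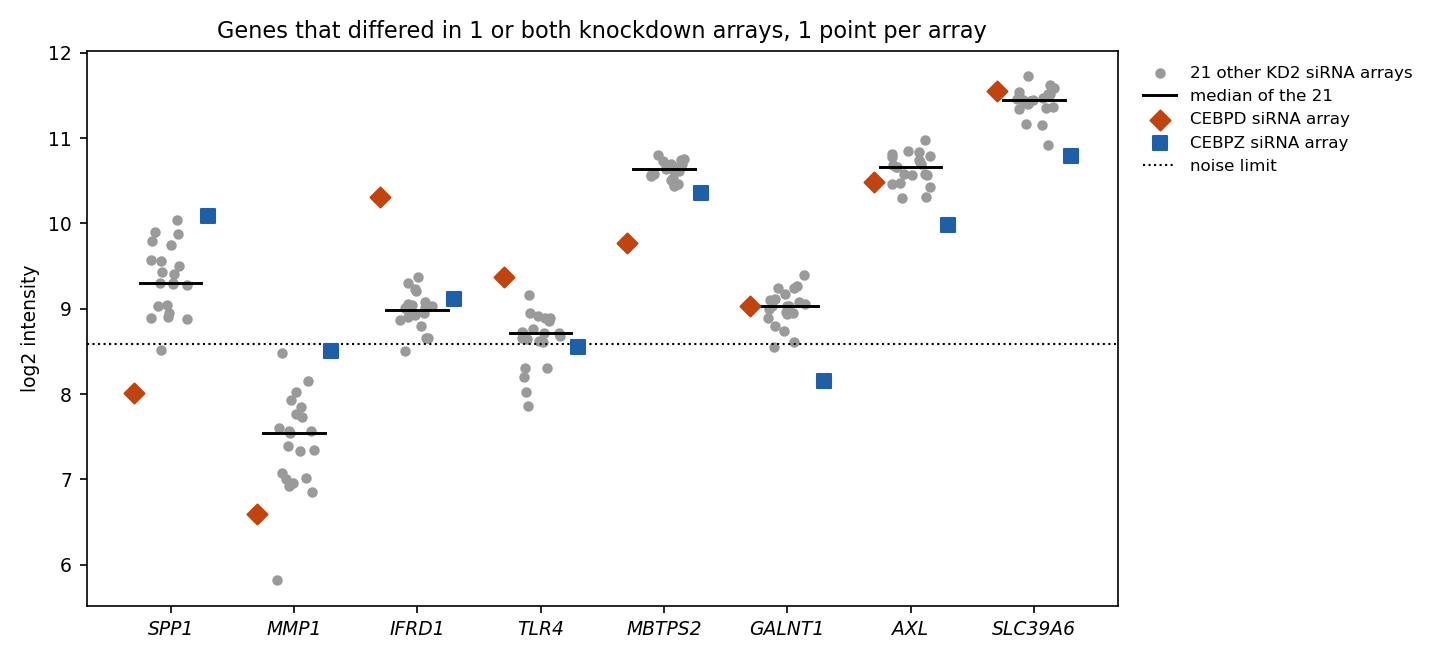
Log2 intensity of SPP1, MMP1, IFRD1, TLR4, MBTPS2, GALNT1, AXL and SLC39A6 in the 23 KD2 arrays, with the 21 other siRNA arrays in grey, their median as a black line and the noise limit of 8.59 dotted. SPP1 lies at 8.01 in the CEBPD and at 10.09 in the CEBPZ siRNA array, outside the 21 on both sides, whereas IFRD1 leaves the grey points in the CEBPD siRNA array and GALNT1 in the CEBPZ siRNA array.

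As a second call, each array was set against the 21 in limma with Benjamini-Hochberg adjustment over all 54675 probe sets, under the assumption that the lone array varies like the 21. For CEBPD siRNA, 1 gene above noise was higher at an adjusted p under 0.05, 0.0208% of 4800, and 9 were lower, 0.188%. IFRD1 was the gene that was higher (adjusted p = 0.0057, limma). MBTPS2 (adjusted p = 0.0019, limma), ANXA11, SEPTIN8, GPI, ARL2 and UBE2B were lower and had been called by the fold as well. The other lower genes were RPS15, EEF1D and PDZD11, which differed by less than 1.5-fold and were named after their values were seen. SPP1 did not pass in either array (adjusted p = 0.644 and 0.694, limma). For CEBPZ siRNA only CEBPZ passed among the genes above noise (adjusted p = 6.61e-07, limma), with 0 genes higher, 0%, and 1 lower, 0.0208%. UBQLN1 had the next lowest value among the called genes (adjusted p = 0.0608, limma), and GALNT1 missed by more (adjusted p = 0.168, limma). CEBPD itself, below the noise limit, did not pass in the array of its siRNA (adjusted p = 1, limma). Over all probe sets, dim and unnamed ones included, 20 passed in the CEBPD and 11 in the CEBPZ siRNA array. At an unadjusted p under 0.05 the share of genes above noise was, in both arrays, near the 0.05 that such a threshold passes without any effect.

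Control siRNA and untreated arrays were read at the same probe sets. In the CEBPZ siRNA array all 14 called genes, the target CEBPZ among them, lay beyond all 6 of them on the called side. Of the genes called in the CEBPD siRNA array, 21 of 28 did. IFRD1 did not, since control siRNA array 3 and untreated array 3 held it at 11.23 and 11.16, above the 10.31 of the CEBPD siRNA array, while the other 4 lay between 8.28 and 8.97. MGP, FERMT1, SEPTIN8, SLC7A11, DKK1 and SERPINF1 also overlapped the 6 arrays. The share of all genes above noise that lay beyond the 6 arrays was not computed, so these counts have no background to be read against. Control siRNA array 3 and untreated array 3 are near copies, with 95.4% of probe sets within 10% of each other, against 54.8% and 52.9% for the CEBPD and CEBPZ siRNA arrays and the array closest to each.

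Gene lists covered the known roles of the 2 factors and other cell processes. Each list was described by the counts and medians of its members above noise. Over all 4800 genes the median difference was -0.01 in the CEBPD and -0.04 in the CEBPZ siRNA array, and 54.2% and 62.4% of genes were lower. These shares are the background for the counts of lower members below. Of all genes 4.29% lay above and 8.27% below all 21 others in the CEBPD siRNA array, and 1.81% and 7.25% in the CEBPZ siRNA array. Members given below only for lying outside all 21 were named after their values were seen. Among acute phase and inflammatory genes linked to C/EBP delta, 3 of 21 measured genes passed the noise limit, and all 3 were higher in the CEBPD siRNA array and lower in the CEBPZ siRNA array. TLR4 was called higher in the first and differed by -0.15 in the second. The chemokine gene CXCL8 differed by 0.65 and -0.53, both inside the 7.76 to 12.94 of the others, whose highest value again came from the PIK3CB siRNA array. The serpin gene SERPINA3 differed by 0.10 and -0.24.

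Ribosome assembly genes, the group to which CEBPZ itself belongs by its yeast counterpart, had no called member in either array apart from CEBPZ, which was left out of the counts. Of 34 large subunit assembly factors above noise, 22 were lower and 12 higher in the CEBPZ siRNA array, with a median of -0.03. That share of lower genes was close to the 62.4% of all genes. The median lay within the -0.12 to 0.07 of the 21 others, as did that of 0.05 in the CEBPD siRNA array, where 26 of 34 were higher and MAK16, RPF2 and BRIX1 lay above all 21. After CEBPZ siRNA, MAK16, GNL2, NOL9 and NSA2 differed by -0.17, -0.22, -0.20 and 0.05. Of 40 small subunit assembly factors 32 were lower in the CEBPZ siRNA array, with a median of -0.07 against -0.14 to 0.11 in the others. In that array 5 of the 40, 12.5%, lay below all 21, against 7.25% of all genes. Those 5 were KRR1, NOP14, RIOK1, HEATR1 and RRP12. KRR1, an RNA-binding factor of the small subunit processome, was 9.05 in the CEBPZ siRNA array against 9.23 to 9.74 in the others, a difference of -0.50, and NOP14 was 8.59 against 8.68 to 9.03. The CEBPD siRNA array had 23 of 40 higher, with UTP4, NOL10, DCAF13 and RIOK2 above all 21, and NAT10 and RRP12 below them, RRP12 at 9.01 against 9.19 to 9.43. Of 8 RNA polymerase I and nucleolar genes 7 were lower in the CEBPZ siRNA array with a median of -0.05, and POLR1D differed by -0.30 in the CEBPD siRNA array.

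Ribosomal protein genes, which vary little among arrays, had a median of 0.01 for the large and 0.00 for the small subunit in the CEBPZ siRNA array. In the CEBPD siRNA array 23 of 29 large subunit genes were lower, with a median of -0.04, outside the -0.03 to 0.03 of the 21 others. RPS15 was 13.83 there against 14.24 to 14.34, and RPS9 was 13.30 against 13.47 to 13.63. Many ribosomal protein genes share sequence with pseudogenes, so these values are uncertain.

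Heat shock genes were examined because the HSP70 promoter is the classical CCAAT target of CEBPZ. Of 13 above noise, 9 were lower and 4 higher in the CEBPZ siRNA array with a median of -0.05, within the range of the others, near the share of all genes and with none called. HSPA9 differed by -0.27 and HSPH1 by -0.06, and in the CEBPD siRNA array DNAJB1 differed by 0.25. The probe sets for the near-identical HSPA1A and HSPA1B genes cannot separate them. The brightest of these read 10.65 in the CEBPZ and 10.77 in the CEBPD siRNA array against 10.21, 10.48 and 11.10 for the lowest, median and highest of the 21 others, inside their range in both.

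Cell cycle genes were mostly on the higher side in the CEBPD siRNA array, and mostly on the lower side in the CEBPZ siRNA array, where 62.4% of all genes were lower and the median of all genes was -0.04. In the CEBPD siRNA array 54.2% of all genes were lower. None of the cell cycle genes was called in either array. Of 36 G2/M and mitosis genes 33 were higher in the CEBPD siRNA array with a median of 0.21, and 30 were lower in the CEBPZ siRNA array with a median of -0.06. The medians of the 21 others ran from -0.48 to 0.28, so both arrays were inside. In the CEBPD siRNA array 9 of the 36 genes, 25%, lay above all 21, against 4.29% of all genes. The mitotic kinase genes PLK1, TTK and NEK2 and the passenger complex gene CDCA8 were higher by 0.43, 0.41, 0.40 and 0.42 in the CEBPD siRNA array. TTK, NEK2 and CDCA8 were among the 9, whereas PLK1, at 8.69, was below the 8.76 of the highest of the 21. Of 29 DNA replication genes 26 were higher in the CEBPD siRNA array, with a median of 0.16, and 26 were lower in the CEBPZ siRNA array, with a median of -0.10, in a range of -0.48 to 0.27. The clamp loader genes RFC5 and RFC3 and GINS1 differed by 0.38, 0.36 and 0.37 in the CEBPD siRNA array. Of 10 p53 target genes 8 were higher in the CEBPD and 7 lower in the CEBPZ siRNA array, the latter close to the share of all genes, with CDKN1A at 0.33 and 0.01 and AEN at 0.28 and -0.27.

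Endoplasmic reticulum chaperones were lower in the CEBPZ siRNA array in 17 of 18 cases, where 62.4% of all genes were lower, with a median of -0.14 that lay inside the -0.17 to 0.15 of the others and with none called. HYOU1, DNAJB9 and CANX differed by -0.38, -0.30 and -0.28, and CANX at 11.92 was below the 11.99 to 12.39 of the others. After CEBPD siRNA 10 of 18 were higher with a median of 0.05, while PDIA4 was called lower and DNAJC3 differed by -0.39. Of 15 stress response genes downstream of ATF4 and CHOP, 9 and 11 were lower in the CEBPD and CEBPZ siRNA arrays, with medians of -0.10 and -0.09. SLC7A11 was called lower in the CEBPD siRNA array, and the amino acid transporter gene SLC7A5 was 9.72 there against 9.92 to 10.62. In the same array 6 of the 15 were higher, among them PSAT1 by 0.29 and MTHFD2 by 0.22.

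Genes of the invasive melanoma state had medians below that of all genes in both arrays. Of 11 above noise 7 were lower in the CEBPD siRNA array, with a median of -0.17, and 8 in the CEBPZ siRNA array, with a median of -0.18, against -0.22 to 0.12 in the 21 others. The called members differed, THBS1 in the CEBPD and AXL in the CEBPZ siRNA array, and CCN1 differed by -0.48 and -0.51 without a call. Both arrays share their reference, so this likeness is a description only. Members also lay on the other side in the CEBPD siRNA array, where SPARC, at 13.38 against a highest value of 13.30, and WNT5A, at 9.57 against 9.55, were above all 21. The 4 pigmentation genes above noise were all higher in the CEBPZ siRNA array. Their median of 0.16 lay within the -0.15 to 0.19 of the others. EDNRB was higher by 0.47, at 10.33 just above the 10.27 of the highest of the 21, and MITF by 0.18. In the CEBPD siRNA array EDNRB differed by 0.35 and MITF by -0.07. Output genes of the ERK pathway had medians of 0.09 and -0.03, with SPRY4 at 0.26 and -0.07. Hypoxia and glycolysis genes had medians of 0.00 and 0.01, and 11 of 21 were higher in the CEBPD siRNA array. There the transporter gene SLC2A1 was 8.20 against 8.37 to 8.94 and PFKP was 9.88 against 10.09 to 10.68. GAPDH was above all 21 in that array by a small margin, at 14.78 against a highest value of 14.77. Interferon stimulated and cholesterol genes had medians of -0.04 and 0.03 in the CEBPD and 0.05 and 0.06 in the CEBPZ siRNA array, with none called.

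**Figure D5:**
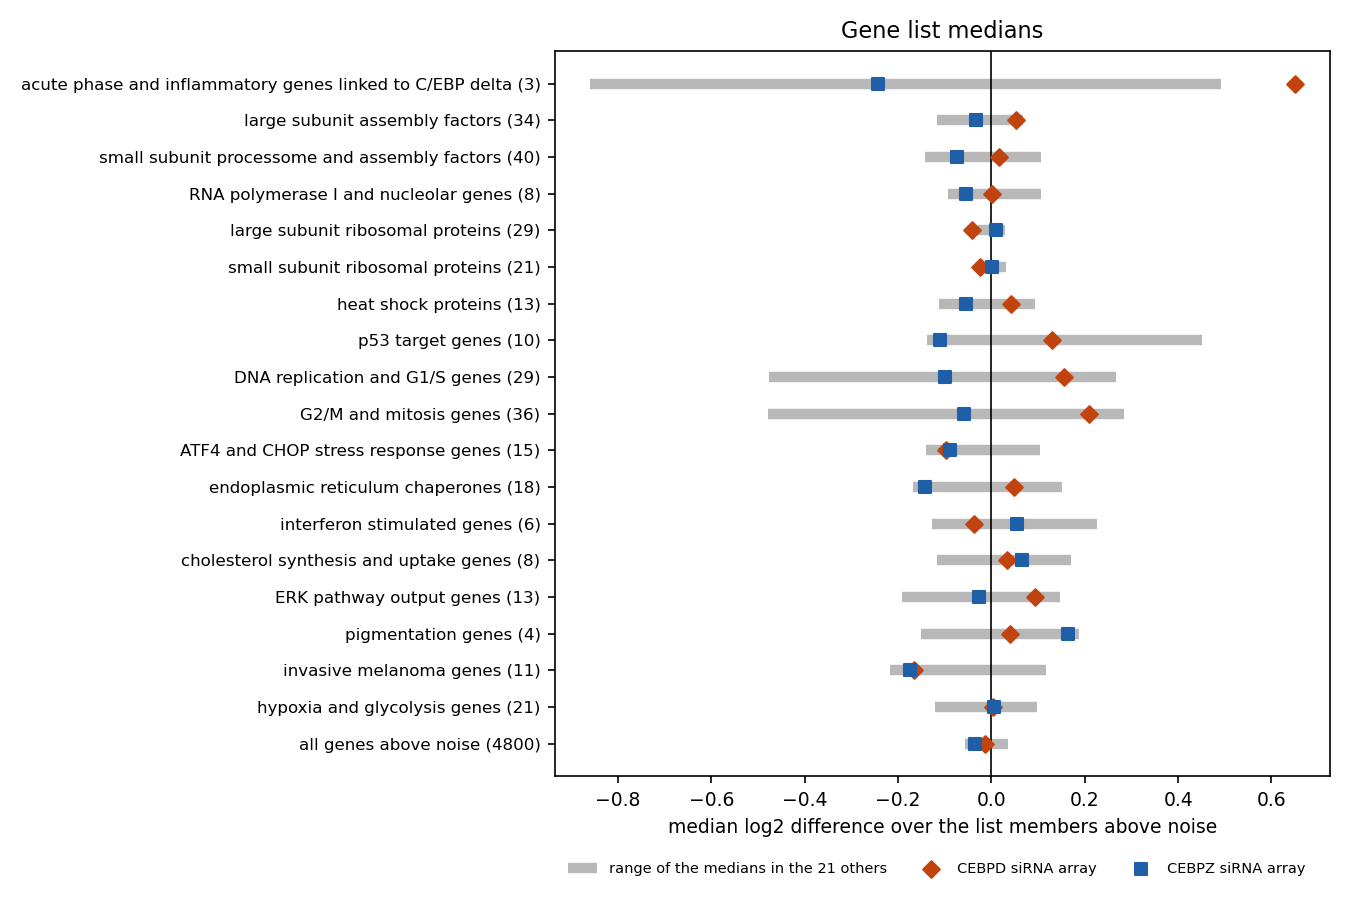
Median log2 difference over the members above noise of each gene list (number of genes in brackets) in the CEBPD (red diamonds) and CEBPZ (blue squares) siRNA arrays, with the range of the same medians in the 21 other KD2 arrays as grey bars. Lists with at least 3 members above noise are shown. The markers lie inside the grey bars except for the inflammatory genes at 0.65 and the large subunit ribosomal proteins at -0.04, both in the CEBPD siRNA array.

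Promoters of the called genes were searched for the patterns marked in the sequences above. The CCAAT box was found in 9 of 19 genes called in the CEBPD siRNA array with a promoter in the table, 47.4%, and in 3 of 12 in the CEBPZ siRNA array, 25%, the target left out. Of the 4097 genes above noise with a promoter 38.3% held it, and of all 27305 promoters 35.7%. TTGCNNAA was found in 1 of 19 genes, CDH19, and in 3 of 12 genes, GALNT1, AXL and UBQLN1, against 6.71% of genes above noise. The numbers of genes are small, and a window without a match says only that these letters are absent from it.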

How the data were processed

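Labels gave the siRNA of each array, and the study's methods gave the batches. The authors hybridised RNA to Affymetrix U133 plus 2.0 arrays and made the deposited values with RMA (version not given in the sources used here). For batch effects, the study's methods describe a further step, a scaling of probe sets by their batch medians. Whether the deposited values include that step was not tested. The deposited values are linear intensities, which were taken to log2 with no further normalisation. Of 54675 probe sets, 41097 had 1 gene symbol, 1801 several and 11777 none. A gene was read from its brightest probe set. Each array was compared with the median of the other 21 KD2 arrays. With 1 array per siRNA there is no replicate test, and limma 3.58.1 (R 4.3.3) served as a second call. The members and lists were chosen with earlier results of these data known. Genes were named by rule: both targets, the C/EBP family, the 12 largest rises and falls called in each array, genes called in both, and up to 4 members per list. Exceptions are marked, and the remaining called genes were added after their values were seen. The labels and the methods give different siRNA concentrations. Python 3.11.15 was used. The number of arrays limits the precision.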

Additional observations from a re-analysis of the deposited data

Results flagged for a closer look

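SPP1 differed by -1.29 in the CEBPD and by 0.79 in the CEBPZ siRNA array, outside the 21 other KD2 arrays on opposite sides. SPANXB1, below the noise limit, differed by -0.80 in the CEBPD and by 1.06 in the CEBPZ siRNA array, again outside the 21 on opposite sides. Each knockdown is a single array, and the difference between the 2 knockdowns was not tested for either gene.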

How the results depend on the processing

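With 1 array per knockdown no spread between cultures could be measured, and the signal over the noise limit bounds the precision of dim genes such as CEBPD. The 2 target falls stayed within 1 SD of the 21 arrays under every alternative run. For CEBPD that SD was 0.66, or 0.25 without the PIK3CB siRNA array, so it is a wide measure of stability for this gene. Other values depended on the reference and the probe set, and the cause was not tested. Genes higher and lower in the CEBPD siRNA array, higher and lower in the CEBPZ siRNA array, and shared were 8, 20, 1, 13 and 0. With the 3 control siRNA arrays as reference they were 65, 51, 49, 53 and 32. Without control replicate 1 they were 122, 81, 71, 60 and 49, without control replicate 2 they were 246, 183, 197, 192 and 234, and without control replicate 3 they were 55, 97, 30, 137 and 59. With no noise limit they were 25, 56, 20, 41 and 2. With a fold of 2 they were 1, 1, 0, 1 and 0. In limma they were 1, 9, 0, 1 and 0. With all probe sets of a gene reduced to their median they were 3, 9, 2, 4 and 0. With the probe set of largest SD, 3 genes were higher in the CEBPD siRNA array, and 4 were higher and 6 lower in the CEBPZ siRNA array. With the other 37 targeting arrays centred by batch, 5 and 0 genes were higher in the CEBPD and CEBPZ siRNA arrays. With a noise limit at the BioB median, 2 genes were higher in the CEBPZ siRNA array. The other alternatives, including another quantile normalisation and centring of each array, left these counts within 1.5 times. Of 32 named genes over 384 values, 286 moved by less than 1 SD of the 21, 89 moved by more and 9 turned direction. With the probe set of largest SD, HMGA2 (-0.18) and SEPTIN8 (0.10) in the CEBPD and SLC30A7 (0.29) and OTUD4 (0.043) in the CEBPZ siRNA array turned. With probe sets reduced to their median MSI2 (0.042) and OTUD4 (0.088) turned. Against control siRNA arrays, MGP was 0.0023 without control replicate 1 and 0.47 without control replicate 2, and FERMT1 was -0.033 without control replicate 2. IFRD1 in the CEBPD siRNA array was 1.44 with the 3 control siRNA arrays as reference, 0.26 without control replicate 1 and 0.55 without control replicate 2. Of the 28 and 14 calls, 16 and 7 were kept with the 3 control siRNA arrays, 10 and 3 with probe sets reduced to their median, and 18 and 6 with the probe set of largest SD. No paired analysis was possible because each knockdown has 1 array, its differences come from no replicate test, and the numbered control siRNA and untreated arrays enter no test here.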

Other observations

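The genes below were named after their values were seen. TXNIP, ADAM19 and MMP1 were below the noise limit. TXNIP, which encodes an inhibitor of thioredoxin and of glucose uptake, was 6.85 in the CEBPD siRNA array against 7.12, 8.17 and 9.06 for the lowest, median and highest of the 21 other KD2 arrays, a difference of -1.32. Its other 2 probe sets differed by -1.39 and -0.87 and were also below all 21. In the CEBPZ siRNA array TXNIP differed by 0.13. ADAM19, a membrane metalloprotease gene, was 8.84 in the CEBPD siRNA array against 7.07, 7.62 and 8.63, and differed by -0.08 in the CEBPZ siRNA array. The collagenase gene MMP1 differed by -0.95 in the CEBPD siRNA array, where 1 of the 21 others was lower still, and by 0.96 in the CEBPZ siRNA array, where it was above all 21 by a small margin (8.50 against 8.48).

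Above the noise limit, TFPI2, a serine protease inhibitor gene, differed by 0.47 in the CEBPD and by -0.41 in the CEBPZ siRNA array, and IGFBP5, an insulin-like growth factor binding protein gene, by -0.41 and 0.47. All 4 values lay within the range of the 21 others.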
